A study of Homo sapiens with 27 samples.

Results

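The genes described here encode the machinery that docks, primes, fuses and recycles secretory vesicles: 33 genes chosen by symbol, as vesicle proteins, calcium sensors, SNARE proteins and their regulators, active zone and priming factors, RAB3 proteins and endocytic proteins. All 33 were listed among the 41686 human genes of the shRNA table, and 32 among the 34742 of the siRNA table, where SYN2 was not listed. SHP77 is an established line of human small cell lung cancer. Its RNA was sequenced in 17 libraries, and the other 10 of the 27 samples (ChIP-seq and inputs) were not analysed here. The shRNA cells were infected with lentivirus, selected in puromycin at 3 µg/ml and read as total RNA. They carried shGFP (the negative control, n = 2), circRMST shRNA 1 (n = 2) or circRMST shRNA 2 (n = 2). circRMST is a circular RNA from the long non-coding gene RMST. The siRNA cells were collected 72 hours after transfection and read as poly(A) RNA. They received si-control (n = 3), SOX2 siRNA 1 or 2 (n = 2 each) or NKX2-1 siRNA 1 or 2 (n = 2 each). SOX2 and NKX2-1 are transcription factors that the series describes as partners of circRMST. All libraries came from the same line, so they show nothing of variation between tumours. The series text calls the replicates biological without naming separate cultures, so part of the spread between them may be technical. The p-values cover the spread between libraries of the same group alone.

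Small cell lung cancer of the neuroendocrine kind stores peptide hormones in dense-core vesicles and expresses much of the release apparatus known from nerve terminals. In regulated release, a RAB3 GTPase and its effectors bring the vesicle to the membrane, UNC13, RIM and CAPS proteins prime it, and the SNARE proteins VAMP, syntaxin and SNAP-25 zip together. Synaptotagmins couple fusion to calcium, complexins hold and assist the SNARE complex, and NSF with its SNAP adaptors takes it apart again. Dynamins and endophilins then retrieve the membrane.

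Levels below are normalized counts, as deposited, and compare a gene across libraries of a table, not with another gene. Fold changes are differences of log2(normalized count + 1) with their standard error (SE). They are averaged over the 2 reagents of a knockdown unless a reagent is named. The SE comes from the spread between libraries of the same reagent or control. Differences between the 2 reagents therefore enter neither the SE nor the p-value of an average. P-values are from limma, adjusted by the Benjamini-Hochberg method over every gene tested in the comparison, and a gene was called below 0.05. The stricter rule used below also asked that each reagent alone pass in the same direction and that no knockdown library overlap a control library.

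Depth was 46.85 to 57.35 M (megareads) in the shRNA libraries and 15.49 to 50.1 M in the siRNA libraries. The 5 neuroendocrine markers INSM1, CHGA, NCAM1, DLL3 and UCHL1 had reads in every group. Their summed level was 26411 to 28076 in shGFP, 31095 to 31183 with circRMST shRNA 1, 24962 to 25227 with circRMST shRNA 2 and 45985 to 53750 in the siRNA libraries. The markers did not move together with circRMST shRNA: INSM1 fell (-1.33, adjusted p = 2.04e-14) and NCAM1 fell slightly (-0.13, adjusted p = 0.0290), CHGA (0.50, adjusted p = 3.96e-08) and UCHL1 (0.31, adjusted p = 1.14e-05) rose, and DLL3 was not called. Its siRNAs took SOX2 from 1142 to 393 and 452, and the siRNAs to NKX2-1 took that gene from 2234 to 1014 and 816. RMST is counted over the whole gene (290 in shGFP, 276 and 260 in knockdown), which checks nothing about the circle. With circRMST shRNA NKX2-1 was called lower on average (-0.41, adjusted p = 0.000166), from 1452 to 943 and 1275, but shRNA 2 did not pass alone. SOX2 was called higher on average (0.24, adjusted p = 0.00238), from 2113 to 2322 and 2681, but shRNA 1 did not pass alone. The part of these 2 changes in the results was not tested. The shGFP libraries also held low reads over genes that were silent elsewhere. The shRNA table listed 1548 protein-coding genes that had no read in any siRNA library. Of these, 82.4 to 85.6% had a read in the shGFP libraries and 14.7 to 20.5% in the circRMST knockdown libraries. The median of that shGFP excess was 4.03 normalized counts. Its 99th percentile was 38.7 normalized counts, and members within that percentile are marked below.

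The stretch of 250 bases before an annotated start is printed for 3 members: RAB3B, which had the lowest fold change among members above 50 normalized counts, SYT1, which had the highest, and SYN1, which came after RAB3B among the falls. The sequences are from RefSeq (GRCh38.p14) and read in the direction of the gene, and 27 of the 33 members had such an entry. The start used for SYT1 lies inside the annotated span of that gene (78863982 to 79452008), so its stretch lies inside the span too. Capitals mark matches to 2 motifs, the GC box GGGCGG on either strand (CCGCCC when it lies on the opposite strand) and TTCAGCACC, the left part of the RE1 element, the binding element of the neuronal repressor REST.
RAB3B, chr1:51990701-51990950, minus strand: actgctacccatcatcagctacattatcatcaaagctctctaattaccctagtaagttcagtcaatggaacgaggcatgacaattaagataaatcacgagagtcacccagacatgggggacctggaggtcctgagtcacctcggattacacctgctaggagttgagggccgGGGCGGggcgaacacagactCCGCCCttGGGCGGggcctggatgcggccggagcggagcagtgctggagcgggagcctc
SYT1, chr12:78864524-78864773, plus strand: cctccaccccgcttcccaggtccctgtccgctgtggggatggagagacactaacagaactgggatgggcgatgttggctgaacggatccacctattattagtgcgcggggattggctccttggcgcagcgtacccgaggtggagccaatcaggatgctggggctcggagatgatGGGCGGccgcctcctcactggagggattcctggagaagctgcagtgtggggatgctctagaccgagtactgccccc
SYN1, chrX:47619858-47620107, minus strand: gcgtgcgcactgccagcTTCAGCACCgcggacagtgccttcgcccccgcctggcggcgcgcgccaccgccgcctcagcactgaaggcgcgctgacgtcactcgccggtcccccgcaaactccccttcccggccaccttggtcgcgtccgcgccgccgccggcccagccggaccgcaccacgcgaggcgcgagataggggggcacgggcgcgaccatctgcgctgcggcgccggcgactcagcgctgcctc

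The RAB3B stretch held 3 GC boxes, the SYT1 stretch 1 and the SYN1 stretch none. Some members had several starts, 35 in all, and GC boxes lay before 19 of the 27 members, at 60% of those 35 starts and at 42.6% of all 35116 starts in the table. The RE1 part, on either strand, lay before SYN1 alone among the members, starting 233 bases before the start, and before 0.288% of all starts. The rest of the RE1 element was not searched for, so a match to the part does not tell a partial from a whole element. The SOX2-type words CATTGTT and CTTTGTT were found before SV2A and before no member (2.87 and 4.5% of all starts). The NKX2-1-type words CACTTGA and CACTCAA were found before none (2.06 and 2.11%). The E-box CAGCTG lay before DNM3, RPH3A, UNC13B and VAMP1 (11.4% of the members' starts and 14% of all starts). Every motif was searched on both strands, and no matches overlapped in the printed stretches. Median GC content was 66% over the members, each at its first listed start, and 58% over all starts, with a range of 37.2 to 81.6% among the members. A match is a description of letters and not a bound site.

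The first comparison asked which genes changed with circRMST shRNA. The release genes moved in both directions. The called vesicle proteins and RAB3 genes all fell, the dynamins rose, and the synaptotagmins, SNARE genes and SNARE regulators each held called members of both directions. In the active zone group the called falls were RIMS1 and CADPS alone, whose low counts are given below. RAB3B fell 6.92-fold, the vesicle proteins SYN1, SYP and SV2A fell, and the calcium sensor SYT7 fell 2.02-fold while SYT1 rose 2.08-fold. Active zone scaffolds and dynamins rose by smaller amounts. Of the 31 members tested, 11 rose (background 27.8% of 19068 genes) and 15 fell (25.9%), and 5 were not called. Among genes averaging at least 50 normalized counts, which leaves out the low RIMS1, CADPS and RPH3A, 11 members rose and 12 fell. Of all genes at that level, 5085 rose and 3563 fell. The stricter rule took 10 of the 31 as higher (19.6% of all genes) and 11 as lower (17.3%), or 9 without CADPS and RPH3A, whose counts were low. The median fold change was -0.09 over the members and 0.0015 over all genes tested. With libraries scaled to equal totals, which moved the median of all genes to -0.15, 11 members were higher and 18 lower, beside 3635 and 6589 of all genes. Without shGFP replicate 2, 9 members were lower and 11 higher, beside 3759 and 4595 of all genes. In bulk RNA, fewer cells of a kind and less RNA per cell cannot be told apart.

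**Figure D1:**
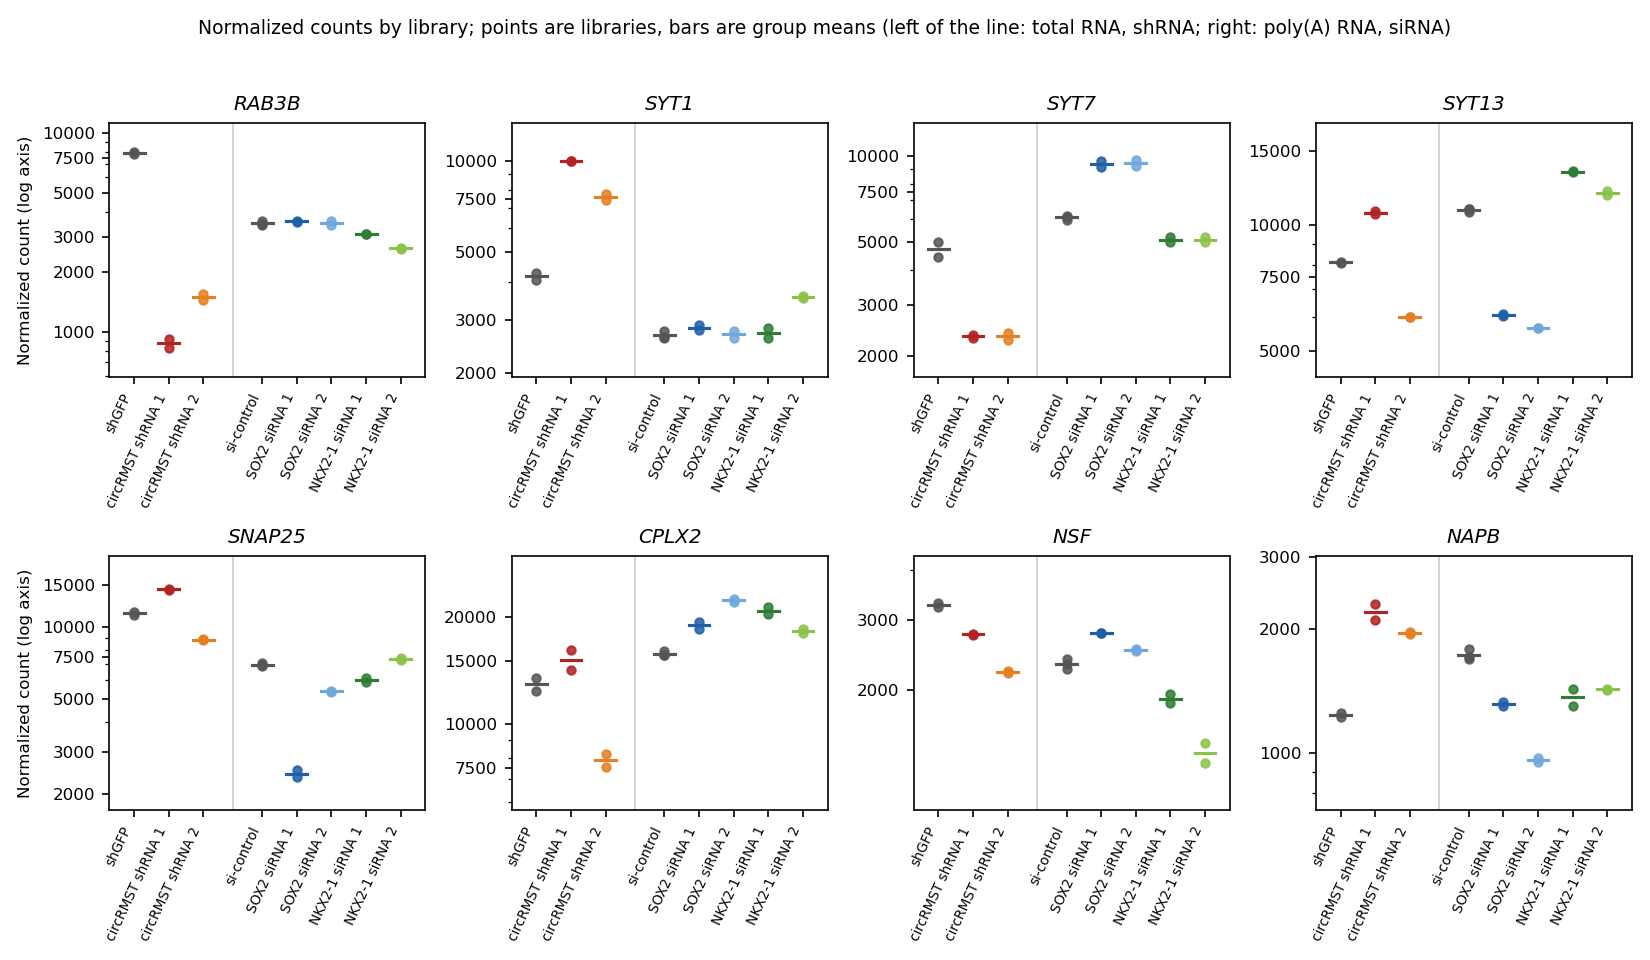
Normalized counts of 8 members in every library (log axis), with points for libraries and bars for group means; total RNA stands left of the vertical line and poly(A) RNA right of it. RAB3B lies between 7796 and 8017 in shGFP and between 828 and 1537 with the circRMST shRNAs, and SNAP25 between 2350 and 2519 with SOX2 siRNA 1.

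RAB3 proteins are small GTPases on secretory vesicles that act in docking. RAB3B (ENSG00000169213.6, chromosome 1, 51907956 to 51990700, GRCh38.p14) was at 7796 and 8017 in shGFP, at 920 and 828 with shRNA 1 and at 1537 and 1448 with shRNA 2. All 4 knockdown libraries lay below both controls, and the fall was 6.92-fold (log2 -2.79, SE 0.06, adjusted p = 6.51e-20). shRNA 1 gave the lower level (-3.18 against -2.40), and the difference between the reagents was called (-0.77, SE 0.07, adjusted p = 4.76e-08). RAB3C was at 3044 and 2836 in shGFP, 2445 and 2405 with shRNA 1 and 1749 and 2071 with shRNA 2. RAB3C fell without overlap (-0.45, SE 0.07, adjusted p = 4.67e-06). RAB3A was at 290 and 292 in shGFP, 262 and 293 with shRNA 1 and 203 and 156 with shRNA 2. RAB3A was called lower on average (-0.39, adjusted p = 0.0237), but only shRNA 2 passed alone. That call was lost without either shGFP replicate, without shRNA 1 replicate 1, without shRNA 2 replicate 2 and with no filter on low values.

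Among the proteins of the vesicle itself, SYN1 encodes synapsin I, which tethers vesicles to one another and to actin. It was at 239 and 354 in shGFP, 127 and 115 with shRNA 1 and 203 and 123 with shRNA 2. The knockdown libraries lay below both controls, with a wide spread in shGFP and shRNA 2 (-1.07, SE 0.19, adjusted p = 5.86e-05). SYP, synaptophysin, is an integral vesicle protein used as a marker of neuroendocrine tumours. It was at 926 and 1188 in shGFP, 625 and 821 with shRNA 1 and 582 and 480 with shRNA 2, a fall of 1.70-fold (-0.77, SE 0.11, adjusted p = 4.34e-06). SV2A, a vesicle glycoprotein, was at 3037 and 3371, then 2576 and 2684, then 2211 and 1956 (-0.45, SE 0.06, adjusted p = 2.60e-06). For SYP and SV2A the level with shRNA 2 was below that with shRNA 1, and both differences between reagents were called (adjusted p = 0.0199 and 0.00200). Thus the 3 tested members of this role all fell.

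The synaptotagmins did not move together. SYT1 (chromosome 12, 78863982 to 79452008), the fast calcium sensor of synaptic vesicles, was at 4281 and 4046 in shGFP. It was at 9943 and 9929 with shRNA 1 and at 7401 and 7758 with shRNA 2. All 4 knockdown libraries lay above both controls (1.06, SE 0.05, adjusted p = 1.99e-14). SYT7 (chromosome 11, 61513714 to 61588387), a slower sensor with high calcium affinity, was at 4428 and 5014 in shGFP. It was at 2364 and 2308 with shRNA 1 and at 2402 and 2266 with shRNA 2. The 2 reagents gave almost the same fall (-1.01 each), and the average was -1.01 (SE 0.06, adjusted p = 1.74e-12). SYT4, which resides on dense-core vesicles, was at 38563 and 36921, then 30881 and 30178, then 23993 and 24014. It fell without overlap (-0.48, SE 0.04, adjusted p = 2.42e-09). SYT11, a family member that does not bind calcium, was at 3532 and 3572, then 4142 and 4217, then 4704 and 4590 (0.31, SE 0.05, adjusted p = 2.03e-05). Its rise was 0.17 with equal totals and was still called. SYT5 was not called, at 324 and 447 in shGFP and 337 to 394 in knockdown (-0.09, adjusted p = 0.587).

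SYT13 and the SNARE gene SNAP25 were not called on average, and their reagents went opposite ways. SYT13, a synaptotagmin of endocrine cells, was at 8107 and 8159 in shGFP. It was at 10779 and 10579 with shRNA 1 and at 6031 and 6002 with shRNA 2. The first pair lay above the controls (0.39, adjusted p = 1.55e-06) and the second below them (-0.43, adjusted p = 4.70e-07). SNAP25 (chromosome 20, 10218830 to 10307418), which gives 2 helices to the SNARE bundle, was at 11301 and 11637 in shGFP. It was at 14381 and 14532 with shRNA 1 (0.33, adjusted p = 9.78e-06) and at 8807 and 8954 with shRNA 2 (-0.37, adjusted p = 3.28e-06). With equal totals both average differences passed as lower. CPLX2, a complexin, was at 12341 and 13489, then 14154 and 16085, then 8204 and 7539. It was called higher with shRNA 1 (0.23) and lower with shRNA 2 (-0.71), and the average was called lower (-0.24, adjusted p = 0.000688). That average call was lost without shGFP replicate 2, and its value was -0.39 with equal totals. These were 3 of 31 members, where 0.519% of all genes had reagents called in opposite directions.

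The other SNARE genes split. STX1A, the plasma membrane syntaxin of regulated release, was at 672 and 777 in shGFP, 568 and 507 with shRNA 1 and 487 and 476 with shRNA 2. It fell without overlap (-0.51, SE 0.10, adjusted p = 0.000114). VAMP2, the vesicle SNARE, was at 236 and 333, then 490 and 452, then 493 and 415. It rose without overlap (0.72, SE 0.13, adjusted p = 5.58e-05), by 0.47 when shGFP replicate 1, the lower control, was left out. VAMP1, its close relative, was at 190 and 227, then 372 and 360, then 238 and 220. VAMP1 was called higher (0.48, adjusted p = 0.00392), but shRNA 2 overlapped the controls and did not pass alone (0.14), and the call was lost without shGFP replicate 1.

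Among the regulators, CPLX1 was at 371 and 495 in shGFP and at 439 and 471 with shRNA 1, which overlapped. With shRNA 2 it was at 199 and 195 (-1.12, adjusted p = 1.08e-06). The average (-0.52, adjusted p = 0.00136) was lost without shGFP replicate 2, at -0.31, and the reagents differed by 1.20 (SE 0.15, adjusted p = 1.90e-06). NSF, the ATPase that disassembles SNARE complexes, was at 3312 and 3223, then 2755 and 2767, then 2230 and 2206. It fell without overlap (-0.40, SE 0.06, adjusted p = 2.06e-06). NAPB, the beta form of its SNAP adaptor, was at 1226 and 1253, then 2105 and 2307, then 1944 and 1967. It rose 1.67-fold (0.74, SE 0.06, adjusted p = 1.16e-09). Thus the ATPase fell and the adaptor measured beside it rose.

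In the active zone group, 4 scaffold and priming genes rose under the stricter rule. UNC13A, a Munc13 priming factor, was at 3997 and 4490 in shGFP, 5412 and 6054 with shRNA 1 and 5690 and 5264 with shRNA 2 (0.40, SE 0.06, adjusted p = 4.72e-06). RIMS2, a RIM scaffold that binds RAB3, was at 5408 and 4600, then 6369 and 6394, then 5873 and 5941 (0.30, SE 0.06, adjusted p = 0.000108). BSN and PCLO encode bassoon and piccolo, the giant scaffolds. BSN was at 814 and 895, then 1212 and 1079, then 1031 and 1093 (0.37, SE 0.08, adjusted p = 0.000412). PCLO was at 3791 and 3573, then 4308 and 4347, then 5316 and 5296 (0.38, SE 0.05, adjusted p = 1.41e-06). These rises were modest. With equal totals they stayed called at 0.26 for UNC13A, 0.15 for RIMS2, 0.22 for BSN and 0.24 for PCLO, and RIMS2 was at 0.18 without shGFP replicate 2. UNC13B was not called on average (0.03, adjusted p = 0.726), and its reagents parted. It was at 2050 and 1980 in shGFP, and at 1892 and 1704 with shRNA 1, below both controls. With shRNA 2 it was at 2389 and 2318, above both controls. The 2 reagents did not both pass alone. CADPS2, a CAPS priming factor of dense-core vesicles, was not called either (-0.08, adjusted p = 0.252), at 3123 and 3347 in shGFP and 2752 to 3329 in knockdown. The 2 other called members of the group, RIMS1 and CADPS, had few reads and are given below.

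The dynamins, GTPases that pinch off endocytic vesicles, rose. DNM1 was at 1794 and 1988 in shGFP, 3038 and 2851 with shRNA 1 and 2834 and 2662 with shRNA 2 (0.59, SE 0.06, adjusted p = 2.89e-08). DNM3 was at 1177 and 1045, then 2080 and 1989, then 1265 and 1444 (0.58, SE 0.07, adjusted p = 5.58e-07). In both genes every knockdown library lay above both controls. For DNM3 the rise was larger with shRNA 1 than with shRNA 2 (0.87 against 0.28), a called difference of 0.59 (SE 0.09, adjusted p = 2.17e-05).

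Low counts touched 5 members. RIMS1, a RIM scaffold, was at 27.7 and 14.2 in shGFP and at 2.07 to 9.78 in knockdown. CADPS, the CAPS1 priming factor, was at 34.9 and 27.5 in shGFP and at 1.96 to 3.68 in knockdown. RPH3A, the RAB3 effector rabphilin, was at 33.9 and 24.7 in shGFP and at 0 to 9.43 in knockdown. All 3 were called lower (-1.94, -3.14 and -2.87), with SE of 0.69, 0.69 and 0.81. Their shGFP excess of 15.9, 28.5 and 24.7 lay under the 99th percentile of the silent genes described above (38.7) but above the median of those genes (4.03). Without these 3 members 12 were lower. Their means over the table (10.4, 12.2 and 12.8) lay just inside the minimum of 10 for testing, which they passed through the group where they were high. All 3 calls were lost without either shGFP replicate, where RIMS1 and CADPS, and RPH3A too without replicate 1, dropped under that minimum. RIMS1 was also lost without shRNA 1 replicate 1. Just outside it, with means of 2.48 and 2.00, were SYN2, synapsin II, at 7.19 and 6.64 in shGFP and 0 to 1.05 in knockdown, and SH3GL2, endophilin A1, at 8.22 and 3.80 in shGFP and 0 in knockdown.

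**Figure D2:**
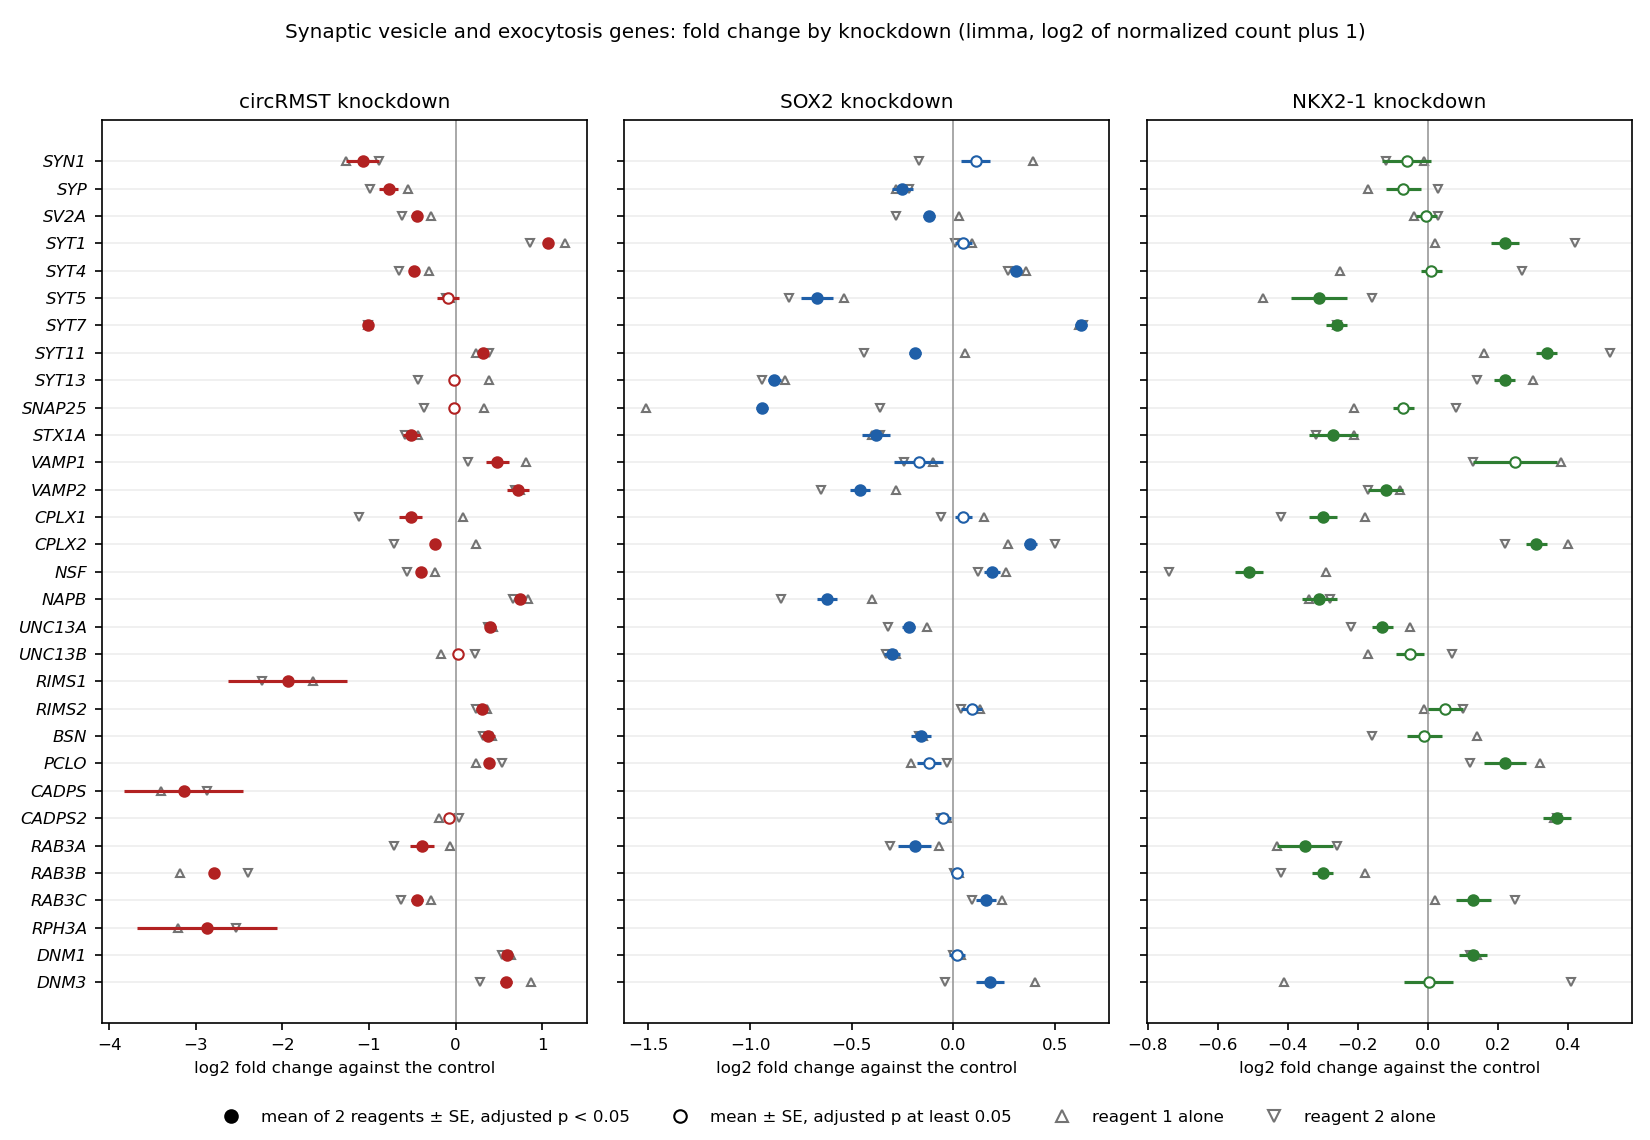
Log2 fold change against the control for each tested member (31 with circRMST, 28 with SOX2 and NKX2-1), with circles for the mean of both reagents ± SE, filled where the adjusted p is under 0.05, and triangles for each reagent alone; the 3 panels have different horizontal scales. RAB3B stands at -2.79 with circRMST shRNA and at 0.02 and -0.30 with SOX2 and NKX2-1 siRNA, and the long error bars belong to RIMS1, CADPS and RPH3A.

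The second comparison asked which genes changed with SOX2 siRNA. The larger falls were of the SNARE gene SNAP25 by 1.92-fold, the synaptotagmins SYT13 by 1.85-fold and SYT5 by 1.59-fold, and the adaptor NAPB by 1.54-fold. SYT7 rose 1.54-fold, and SYT4 and CPLX2 rose by less. Of the 28 members tested, 6 rose (background 27.6% of 16750 genes) and 13 fell (28.7%), and 9 were not called. The stricter rule took 3 as higher (18.3% of all genes) and 10 as lower (19.0%). The median was -0.12 over the members and 0.01 over all genes tested. The summed neuroendocrine markers were at 48127 to 53750 with SOX2 siRNA and at 45985 to 46921 in si-control. They did not move together: INSM1 rose (0.47, adjusted p = 9.97e-11) and UCHL1 rose slightly (0.08, adjusted p = 0.0132). NCAM1 fell (-0.39, adjusted p = 7.73e-11), and CHGA and DLL3 were not called. The part of these markers was not tested.

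The third comparison asked the same of NKX2-1 siRNA. The largest change among these genes was a fall of NSF by 1.43-fold. CADPS2, SYT11 and CPLX2 rose, and RAB3A, RAB3B, CPLX1, NAPB, STX1A and SYT7 fell. Of the 28 tested, 8 rose (background 18.5%) and 10 fell (21.4%), and 10 were not called. The stricter rule took 4 as higher (8.80% of all genes) and 7 as lower (10.2%). The median was -0.03 over the members and -0.0043 over all genes. With equal totals 9 members were higher and 8 lower, beside 4225 and 2643 of all genes, against 3092 and 3592 with the deposited scaling. Of the neuroendocrine markers, INSM1 (0.45) and CHGA (0.19) rose with NKX2-1 siRNA, UCHL1 fell (-0.13), and NCAM1 and DLL3 were not called. The SOX2 and NKX2-1 comparisons share the 3 si-control libraries, so their values stand side by side below and their difference was tested between the 4 SOX2 and the 4 NKX2-1 libraries, which share none.

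That direct contrast called 24 of the 28 members (background 55.8%), 8 higher with SOX2 siRNA (background 27.9%) and 16 lower (28.0%). With equal totals 5 were higher and 17 lower, beside 3715 and 5472 of all genes. Under the added rule of no overlap, 4 were higher (17.4% of all genes) and 8 lower (16.8%). SOX2 itself was at 2263 and 2175 with the NKX2-1 siRNAs, against 1142 in si-control. NKX2-1 was at 2605 and 2569 with the SOX2 siRNAs, against 2234 in si-control, a smaller rise (0.21, adjusted p = 0.000650). The larger differences, from SYT13 at -1.11 to SYT7 at 0.89, are given gene by gene below.

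**Figure D3:**
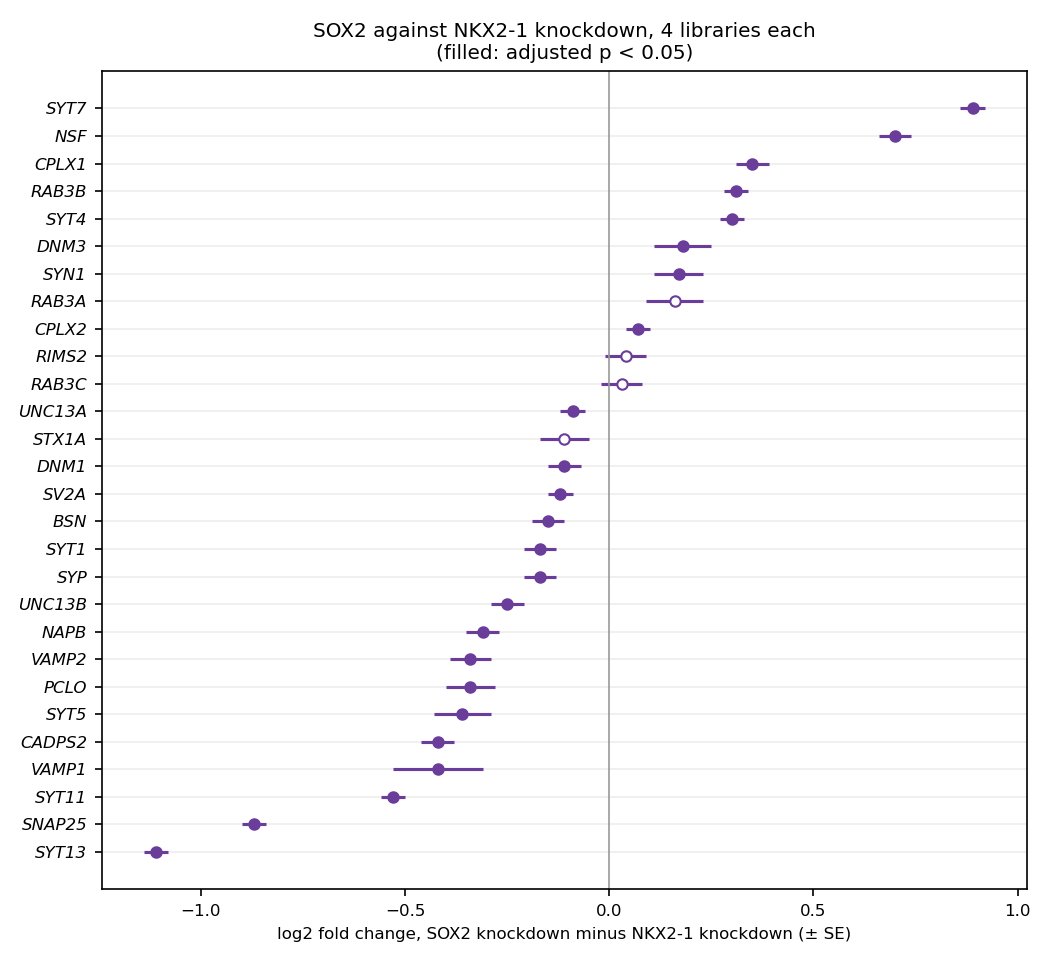
Log2 fold change of the 28 tested members with SOX2 siRNA minus NKX2-1 siRNA, 4 libraries each, with bars for ± SE and filled circles where the adjusted p is under 0.05. SYT7 and NSF lie at the high end (0.89 and 0.70) and SNAP25 and SYT13 at the low end (-0.87 and -1.11).

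SYT13 (chromosome 11, 45240302 to 45286341) was at 10896, 10726 and 10884 in si-control. It was at 6105 and 6051 with SOX2 siRNA 1, 5650 and 5676 with SOX2 siRNA 2, 13358 and 13407 with NKX2-1 siRNA 1 and 12046 and 11762 with NKX2-1 siRNA 2. The SOX2 libraries lay below every control and the NKX2-1 libraries above. It fell with SOX2 siRNA (-0.88, SE 0.03, adjusted p = 1.02e-19) and rose with NKX2-1 siRNA (0.22, SE 0.03, adjusted p = 3.99e-07), a direct difference of -1.11 (SE 0.03, adjusted p = 1.87e-22). SYT7 went the other way. It was at 6141, 6185 and 5982 in si-control, at 9591, 9144, 9243 and 9728 in the 4 SOX2 libraries and at 4989, 5188, 5196 and 4998 in the 4 NKX2-1 libraries. It rose with SOX2 siRNA (0.63, SE 0.03, adjusted p = 3.34e-15) and fell with NKX2-1 siRNA (-0.26, SE 0.03, adjusted p = 2.58e-07), a direct difference of 0.89 (SE 0.03, adjusted p = 3.38e-19).

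Of the other synaptotagmins, SYT11 was at 3307, 3357 and 3205 in si-control. It was at 3422 and 3454 with SOX2 siRNA 1 and 2445 and 2396 with SOX2 siRNA 2, so the reagents differed (0.51, adjusted p = 1.52e-09). The average was called lower (-0.19, adjusted p = 2.98e-05), although both siRNA 1 libraries lay above every control. With NKX2-1 siRNA it was at 3704, 3642, 4695 and 4713 and rose (0.34, SE 0.03, adjusted p = 6.32e-09), a direct difference of -0.53 (adjusted p = 7.82e-14). SYT5, a dense-core vesicle synaptotagmin, was at 434, 520 and 520 in si-control, 335, 340, 257 and 303 with SOX2 siRNA and 347, 360, 440 and 439 with NKX2-1 siRNA. It fell without overlap with SOX2 siRNA (-0.67, SE 0.08, adjusted p = 3.85e-08). With NKX2-1 siRNA it was also called lower (-0.31, adjusted p = 0.00226), where siRNA 2 overlapped a control and did not pass alone. SYT4 was at 13422, 13316 and 13093 in si-control, 16314, 17787, 15834 and 16153 with SOX2 siRNA, and it rose (0.31, SE 0.03, adjusted p = 2.34e-09). With NKX2-1 siRNA 1 it was at 11583 and 10806 and with siRNA 2 at 15973 and 15950, and the average was not called (0.01, adjusted p = 0.841). SYT1 was at 2747, 2630 and 2619 in si-control, at 2783, 2877, 2625 and 2753 with SOX2 siRNA, and was not called there (0.05, adjusted p = 0.280). It was called higher with NKX2-1 siRNA (0.22, adjusted p = 3.84e-05), where siRNA 2 gave 3589 and 3525 and siRNA 1, at 2817 and 2606, overlapped the controls. The direct difference was -0.17 (adjusted p = 0.000184).

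SNAP25 was at 6921, 7051 and 6875 in si-control. It was at 2350 and 2519 with SOX2 siRNA 1 and at 5425 and 5377 with SOX2 siRNA 2, all below every control. The average fall was -0.94 (SE 0.03, adjusted p = 8.29e-19), made of -1.51 with siRNA 1 and -0.36 with siRNA 2, and the reagents differed by -1.15 (SE 0.04, adjusted p = 2.57e-17). With NKX2-1 siRNA, SNAP25 was at 6101 and 5896, then 7426 and 7281, and was not called on average (-0.07, adjusted p = 0.116). The direct difference was -0.87 (adjusted p = 5.73e-19). SNAP25-AS1, an antisense gene annotated over SNAP25, was at 11.1 to 48.7 in the siRNA libraries.

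Of the partner SNARE genes, VAMP2 and STX1A fell with SOX2 siRNA and VAMP1 was not called. VAMP2 was at 1399, 1440 and 1377 in si-control and 1142, 1176, 858 and 937 with SOX2 siRNA, a fall of 1.38-fold (-0.46, SE 0.05, adjusted p = 8.93e-09). With NKX2-1 siRNA it was at 1373, 1291, 1319 and 1182. That smaller difference was called at the edge of the threshold (-0.12, adjusted p = 0.0496), siRNA 1 did not pass alone, and the call was lost under 15 of 22 alternatives. Those include leaving out any of the si-control libraries, NKX2-1 siRNA 1 replicate 2, NKX2-1 siRNA 2 replicate 2 or either library of SOX2 siRNA 2. STX1A was at 1106, 1146 and 1259 in si-control, 988, 794, 913 and 913 with SOX2 siRNA and 934, 1091, 892 and 981 with NKX2-1 siRNA. STX1A fell in both (-0.38, adjusted p = 2.29e-05, and -0.27, adjusted p = 0.00215), with no called direct difference (-0.11, SE 0.06, adjusted p = 0.127). The NKX2-1 call of STX1A was lost with no filter. VAMP1 was at 163, 138 and 149 in si-control, 165, 118, 116 and 138 with SOX2 siRNA and 191, 200, 161 and 167 with NKX2-1 siRNA. It was called in neither knockdown (-0.17, adjusted p = 0.232, and 0.25, adjusted p = 0.0961), although the direct difference passed (-0.42, SE 0.11, adjusted p = 0.00193).

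NSF had the largest NKX2-1 change. It was at 2331, 2264 and 2392 in si-control, 1956 and 1860 with NKX2-1 siRNA 1 and 1480 and 1316 with siRNA 2. Both pairs lay below the controls (-0.51, SE 0.04, adjusted p = 1.53e-10), and the fall was larger with siRNA 2 (-0.74 against -0.29). With SOX2 siRNA, NSF was at 2776, 2789, 2538 and 2514, above every control (0.19, adjusted p = 0.000482), but siRNA 2 did not pass alone. The direct difference was 0.70 (SE 0.04, adjusted p = 2.13e-14). NSFP1, a pseudogene of NSF, was at 0 to 2.85 in the siRNA libraries. NAPB, its adaptor, was at 1795, 1711 and 1694 in si-control, 1300, 1331, 953 and 974 with SOX2 siRNA and 1431, 1306, 1425 and 1435 with NKX2-1 siRNA. NAPB fell in both (-0.62, adjusted p = 4.51e-12, and -0.31, adjusted p = 3.43e-06), and by more with SOX2 siRNA (direct difference -0.31, adjusted p = 3.94e-07).

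The complexins parted. CPLX2 was at 16046, 15586 and 15631 in si-control, 19367, 18504, 22503 and 22017 with SOX2 siRNA and 20313, 21332, 18538 and 18061 with NKX2-1 siRNA. It rose in both, without overlap (0.38, adjusted p = 6.73e-12, and 0.31, adjusted p = 1.14e-09). The direct difference of 0.07 (adjusted p = 0.0205) was lost when single libraries were left out and turned to -0.01 with quantile normalization. CPLX1 was at 1883, 1908 and 1776 in si-control, 1625, 1638, 1407 and 1375 with NKX2-1 siRNA and 2163, 1960, 1824 and 1738 with SOX2 siRNA. CPLX1 fell with NKX2-1 siRNA (-0.30, SE 0.04, adjusted p = 3.60e-06), was not called with SOX2 siRNA (0.05, adjusted p = 0.395) and differed between them (0.35, adjusted p = 4.60e-08).

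Of the RAB3 genes, RAB3B differed between the SOX2 and NKX2-1 knockdowns, while RAB3A (0.16, adjusted p = 0.0630) and RAB3C (0.03, adjusted p = 0.613) did not pass that direct contrast. RAB3B, which had fallen 6.92-fold with circRMST shRNA, was at 3490, 3585 and 3442 in si-control, 3096, 3109, 2638 and 2611 with NKX2-1 siRNA and 3552, 3615, 3446 and 3586 with SOX2 siRNA. It fell with NKX2-1 siRNA (-0.30, SE 0.03, adjusted p = 8.19e-08), was not called with SOX2 siRNA (0.02, SE 0.03, adjusted p = 0.685) and differed between them (0.31, adjusted p = 3.11e-09). RAB3A was at 497, 470 and 482 in si-control and 336, 381, 405 and 402 with NKX2-1 siRNA, a fall of 1.27-fold (-0.35, SE 0.08, adjusted p = 0.000632). With SOX2 siRNA it was at 474, 445, 349 and 436. Its call there (-0.19, adjusted p = 0.0364) was lost under 9 of 22 alternatives, among them without any of the si-control libraries, without SOX2 siRNA 1 replicate 2 and without SOX2 siRNA 2 replicate 1, at -0.11 in that last case. RAB3C, at 942, 993 and 958 in si-control, was called higher in both with overlapping libraries (0.16, adjusted p = 0.00645, and 0.13, adjusted p = 0.0330). The NKX2-1 call was lost under 8 of 22 alternatives, among them without si-control replicate 1 or 3, either library of NKX2-1 siRNA 1 or NKX2-1 siRNA 2 replicate 2. RPH3A was not tested, at 2.82 to 9.98 in si-control, 0 to 4.03 with SOX2 siRNA and 4.09 to 18.0 with NKX2-1 siRNA.

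In the active zone group, CADPS2 was at 1817, 1933 and 2004 in si-control and 2525, 2413, 2445 and 2507 with NKX2-1 siRNA. All 4 lay above the controls with little difference between the reagents (0.37, SE 0.04, adjusted p = 3.97e-08). With SOX2 siRNA it was at 1855, 1893, 1822 and 1843 and was not called (-0.05, adjusted p = 0.327), and the direct difference was -0.42 (adjusted p = 4.05e-10). UNC13B was at 1771, 1822 and 1624 in si-control and 1456, 1409, 1391 and 1378 with SOX2 siRNA, a fall of 1.23-fold (-0.30, SE 0.04, adjusted p = 1.67e-06). It was not called with NKX2-1 siRNA (-0.05, adjusted p = 0.385), at 1523 and 1561, then 1817 and 1827. UNC13A was at 5531, 5284 and 5371 in si-control, 5004, 4889, 4238 and 4404 with SOX2 siRNA and 5139, 5283, 4775 and 4503 with NKX2-1 siRNA. UNC13A fell in both by small amounts (-0.22, adjusted p = 2.51e-06, and -0.13, adjusted p = 0.00216), where NKX2-1 siRNA 1 did not pass alone and the NKX2-1 call was lost with equal totals (-0.08, adjusted p = 0.0688). BSN fell with SOX2 siRNA (-0.16, adjusted p = 0.00583), from 1612, 1576 and 1673 to 1563, 1361, 1462 and 1420, and that call was lost under 2 of 22 alternatives, 1 of them the fit with no filter (adjusted p = 0.0550). With NKX2-1 siRNA BSN was at 1719, 1845, 1469 and 1429 and was not called (-0.01, adjusted p = 0.865). PCLO was at 565, 584 and 564 in si-control, 719, 706, 592 and 652 with NKX2-1 siRNA and 518, 469, 568 and 552 with SOX2 siRNA. It was called higher with NKX2-1 siRNA (0.22, adjusted p = 0.00477) and not with SOX2 siRNA (-0.12, adjusted p = 0.0955), with a direct difference of -0.34 (adjusted p = 9.39e-06). RIMS2, at 1075 to 1154 in si-control, was called in neither (0.09 and 0.05, adjusted p = 0.161 and 0.514). RIMS1 and CADPS, at 0 to 11.1 and 0 to 7.77 in the siRNA libraries, were not tested.

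Of the vesicle proteins, SYP was at 1429, 1381 and 1345 in si-control and 1155, 1131, 1148 and 1232 with SOX2 siRNA. It fell by 1.19-fold without overlap (-0.25, SE 0.05, adjusted p = 5.44e-05), and was not called with NKX2-1 siRNA (-0.07, adjusted p = 0.220), at 1194, 1261, 1372 and 1449. SV2A was called lower with SOX2 siRNA (-0.12, adjusted p = 0.00114), from siRNA 2 at 5728 and 5550 against 6973, 6765 and 6768 in si-control, while siRNA 1 gave 6922 and 7022. With NKX2-1 siRNA SV2A was at 6496, 6775, 6938 and 7057 and was not called. SYN1 was called in neither (0.11, adjusted p = 0.177, and -0.06, adjusted p = 0.473), at 567, 626 and 629 in si-control and 567, 640, 599 and 521 with NKX2-1 siRNA. It was higher with SOX2 siRNA 1 alone, at 831 and 758 (0.39, adjusted p = 0.000179), and was at 523 and 553 with SOX2 siRNA 2. Of the dynamins, DNM1 was at 4368, 4321 and 4523 in si-control and 4549, 5157, 4913 and 4643 with NKX2-1 siRNA. Its small rise (0.13, adjusted p = 0.0241) was lost under 6 of 22 alternatives, among them without si-control replicate 1 or 2, NKX2-1 siRNA 1 replicate 2 (0.08) or NKX2-1 siRNA 2 replicate 1, and it was not called with SOX2 siRNA (0.02, adjusted p = 0.713), at 4860, 4241, 4248 and 4551. DNM3 was at 452, 445 and 402 in si-control. It was called higher with SOX2 siRNA (0.18, adjusted p = 0.0324), from siRNA 1 at 557 and 581 beside siRNA 2 at 453 and 392. That call was lost under 7 of 22 alternatives, among them without si-control replicate 3, SOX2 siRNA 1 replicate 2 or SOX2 siRNA 2 replicate 1. With NKX2-1 siRNA DNM3 was at 321 and 330, then 553 and 600, and was not called on average (0.0024, adjusted p = 0.983). SH3GL2 was not tested, at 0 to 2.25.

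The 2 reagents of a knockdown were then compared with each other. With the circRMST shRNAs, 17 of 31 members differed (background 19.1%), 13 higher with shRNA 1 (background 10.9%) and 4 lower (8.20%). With the SOX2 siRNAs 10 of 28 differed (18.5%), 8 higher with siRNA 1 (8.08%) and 2 lower (10.4%). With the NKX2-1 siRNAs 16 of 28 differed (26.5%), 7 higher (11.7%) and 9 lower (14.8%). CPLX1 had the largest called difference between the circRMST shRNAs (1.20), SNAP25 between the SOX2 siRNAs (-1.15) and DNM3 between the NKX2-1 siRNAs (-0.82, SE 0.09, adjusted p = 1.03e-07). The NKX2-1 siRNA 1 libraries of DNM3 lay below the controls and those of siRNA 2 above. DNM3 and SYT4 were the 2 of 28 members for which both NKX2-1 siRNAs were called alone, in opposite directions, against 1.78% of all genes. No member was called in this way with the SOX2 siRNAs, against 1.01% of all genes. By level alone, the libraries of the 2 reagents also lay on opposite sides of every control for other members. These were SNAP25 and BSN with the NKX2-1 siRNAs, and SYN1 and SYT11 with the SOX2 siRNAs.

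**Figure D4:**
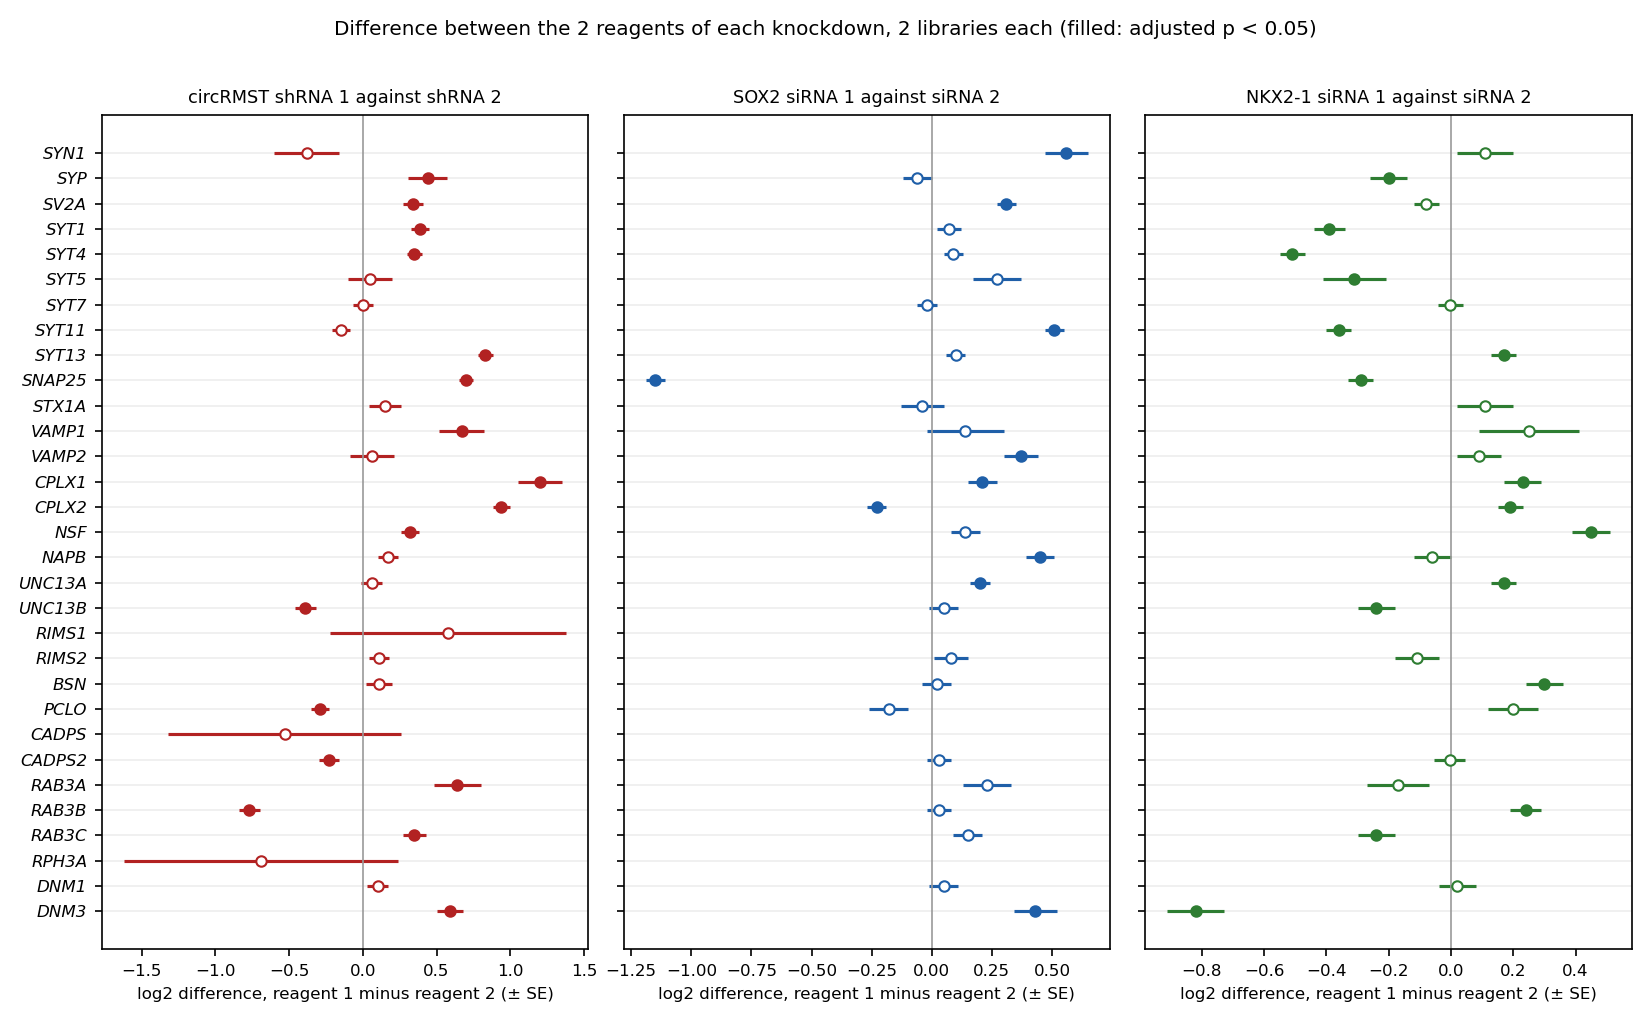
Log2 difference between the 2 reagents of each knockdown (reagent 1 minus reagent 2, 2 libraries each) with bars for ± SE, filled where the adjusted p is under 0.05; the panels have different horizontal scales. CPLX1, CPLX2, SYT13 and SNAP25 lie at 1.20, 0.94, 0.83 and 0.70 for the circRMST shRNAs, and SNAP25 at -1.15 for the SOX2 siRNAs.

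The remaining genes of the pathway were read from a list of 94 other exocytosis and vesicle cycle genes. With circRMST shRNA 74 were tested, of which 27 rose and 21 fell (27.8 and 25.9% of all genes). With SOX2 siRNA 72 were tested, of which 15 rose and 34 fell (27.6 and 28.7% of all genes). With NKX2-1 siRNA 14 of the same 72 rose and 20 fell (18.5 and 21.4%). The largest changes under the stricter rule, among genes averaging at least 50 normalized counts, were as follows. With circRMST shRNA, LIN7A, an adaptor of membrane scaffolds, fell by 1.42, the secretory GTPase RAB3D fell by 1.39 and SNAP23, the widely expressed relative of SNAP25, fell by 1.26. The clathrin adaptor gene SNAP91 rose by 1.07, the secretory GTPase gene RAB27A by 0.73 and SH3GL1, an endophilin, by 0.67. With SOX2 siRNA, SV2B, a relative of SV2A, fell by 1.68, the calcium-binding DOC2A fell by 1.13 and RAB26 fell by 1.07, while STX12 rose by 0.49, CLTC, the clathrin heavy chain, by 0.39 and SH3GL1 by 0.35. With NKX2-1 siRNA, the syntaxin STX3 fell by 0.76, SYTL3 fell by 0.75 and NAPG, another SNAP adaptor, fell by 0.48, while SYNGR3, a synaptogyrin, rose by 0.55, SV2B by 0.46 and the vesicle SNARE gene VAMP4 by 0.42. All values in these sentences are log2 fold changes.

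Neither the counting tool nor its use of strand was given in the sources used here, so reads of overlapping genes cannot be told apart. Another annotated gene spans part of 25 of the 33 members, and for 8 it is protein-coding. TIMP1 lies within SYN1 and was at 365 to 435 in shGFP and 569 to 800 in circRMST knockdown, the opposite direction to SYN1. The other markers were read over the same libraries. PECAM1 made up most of the blood and endothelial sum, which was 402 to 416 in shGFP and 148 to 181 in circRMST knockdown, and 341 to 354 in si-control, 75.1 to 136 with SOX2 siRNA and 148 to 443 with NKX2-1 siRNA. PTPRC, CD68, CD3E and HBB were at or near 0, with a highest group mean of 8.22. The sum of 7 markers of glia and other neurons was 2563 to 2685 in shGFP, 2368 to 2468 in circRMST knockdown and 1976 to 2558 in the siRNA libraries, most of it MBP. With circRMST shRNA MBP was not called (-0.01, adjusted p = 0.878). The neuronal markers did not move together. RBFOX3, at 70.9 and 79.7 in shGFP and 0.919 to 1.05 in knockdown, was called lower. SLC17A7, at 32.9 and 54.1 and then 3.14 to 22.7, was called lower too. GAD1, at 246 and 224 in shGFP and 198 to 249 in knockdown, was not called (-0.13, adjusted p = 0.448). The sum of 6 fibroblast markers was 430 to 567 in shGFP and 467 to 877 in circRMST knockdown. It was 145 to 163 in si-control, 357 to 536 with SOX2 siRNA and 208 to 242 with NKX2-1 siRNA. LUM (1.47) and PDGFRA (1.75) were called higher with SOX2 siRNA. With NKX2-1 siRNA PDGFRA was called higher (1.28) and COL1A1 lower (-1.37). With circRMST shRNA the fibroblast sum held opposite changes: LUM rose (2.34, adjusted p = 3.54e-13), and PDGFRA (-2.04, adjusted p = 1.89e-08), COL1A1 (-2.78, adjusted p = 0.00335) and DCN (-3.53, adjusted p = 0.00126) fell. DCN was at only 27.7 and 26.6 in shGFP and COL1A1 at 67.8 and 23.7, and for COL1A1 shRNA 1 alone did not pass (adjusted p = 0.0787). The shGFP excess of DCN, COL1A1 and SLC17A7 lay within the range of the silent genes described above. The part of these genes in the results was not tested.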

How the data were processed

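RNA was measured in 17 SHP77 libraries, in 2 tables of 41748 and 34791 features. The deposited signal is a normalized count per gene and library. Its tools, per the submitters' processing notes, were cutadapt 2.5, STAR 2.5.2b and DESeq2, with build hg38. The annotation, counting tool, its use of strand and the DESeq2 version are not given in the sources used here. Within each column the values were multiples of 1 step, and 100% came out whole within 0.05 reads, so reads could be recovered. Non-human features (55 and 38) and pseudoautosomal copies (7 and 11) were left out. Symbols were found for 98.5% of IDs.

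Samples were grouped by the labels. No pair of replicates agreed within sampling noise: chi-square per degree of freedom of their reads was 5.36 to 6.02 for shRNA libraries and 1.52 to 5.78 for siRNA libraries. In R 4.3.3, limma 3.58.1 (eBayes with a trend, all libraries of a table) was fitted to log2(normalized count + 1), which understates changes of low genes. Genes averaging at least 10 normalized counts were tested, two-sided. The tables were normalized separately and were not compared by test. Alternatives were pseudocounts of 0.5 and 5, no filter or a mean of 50, equal totals, equal totals without mitochondrially encoded genes, quantile normalization, edgeR 4.0.16 and DESeq2 1.42.0 on recovered reads, only the groups compared, a replicate block and each library left out. edgeR called 10200 genes with circRMST shRNA, 9276 with SOX2 siRNA and 6710 with NKX2-1 siRNA, beside 10230, 9434 and 6684 with limma and 9161, 8318 and 5608 with DESeq2. The fits were run on simulated data with 1 setting of the spread for every gene and both reagents changed alike. That differs from these libraries, so the simulation does not check the p-values given here. All 33 members are accounted for. Members were given by library where they met the stricter rule or passed in the direct contrast, and of the other pathway genes up to 3 per direction and knockdown that met the stricter rule with a mean of at least 50. Of the lists, 1 marker and 1 other pathway gene are not reported here and enter no sum or count of a list. The members and lists were chosen with earlier results of these data known.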

Additional observations from a re-analysis of the deposited data

Results flagged for a closer look

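In 5 cases the reagents of 1 knockdown were called in opposite directions for the same gene, and the difference between the reagents was itself tested with limma (2 libraries each). With circRMST shRNA 1 minus shRNA 2, this difference in log2 fold change was 0.83 for SYT13 (adjusted p = 1.25e-10), 0.70 for SNAP25 (adjusted p = 1.01e-09) and 0.94 for CPLX2 (adjusted p = 2.67e-10). With NKX2-1 siRNA 1 minus siRNA 2, it was -0.51 for SYT4 (adjusted p = 2.81e-10) and -0.82 for DNM3 (adjusted p = 1.03e-07). In each case the libraries of 1 reagent lay above every control library and those of the other below. No group held enough libraries for a check of single outlying libraries.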

How the results depend on the processing

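Of the members called, 19 of 26 with circRMST shRNA, 16 of 19 with SOX2 siRNA, 13 of 18 with NKX2-1 siRNA and 18 of 24 in the direct contrast were called under every alternative. With single libraries left out, members lower with circRMST shRNA numbered 9 to 15, with the lowest count without shGFP replicate 2, and members higher with SOX2 than with NKX2-1 siRNA numbered 5 to 9, with the lowest without NKX2-1 siRNA 1 replicate 1. Members higher in that direct contrast were 5 with no filter, 5 with equal totals and 5 with equal totals without mitochondrially encoded genes, an alternative chosen after seeing the data, as was leaving out the low members. The direct difference of CPLX2 turned from 0.07 to -0.01 with quantile normalization (adjusted p = 0.829), and the cause was not tested. For circRMST shRNA, the fit with only the groups compared is the fit reported. With no filter, genes lower with circRMST shRNA over the whole table numbered 10409, against 4936 with the filter. With 1 library left in a group, that library is assumed to vary like the others.

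The same replicate number did not pair libraries: deviations of same-numbered libraries correlated at -0.042 to 0.0468 over 6 pairs in the shRNA table and -0.109 to 0.0243 over 20 pairs in the siRNA table. Where both groups held 2 libraries, their same-numbered pairs gave the same value by construction, so the pairs are not independent. With a replicate block, 11 members were higher and 15 lower with circRMST shRNA, 5 and 11 with SOX2 siRNA, 6 and 9 with NKX2-1 siRNA, and 8 and 15 in the direct contrast. Not every library correlated best with its own number. The number of reads limits RIMS1, CADPS and RPH3A, and SYN2 and SH3GL2 were too low to test.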
